A study of Mus musculus with 144 samples.

Results

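SR proteins and heterogeneous nuclear ribonucleoproteins (hnRNPs) are the main families of RNA-binding proteins that steer splice-site choice. Their genes were taken by name from the deposited expression table: protein-coding genes called Srsf followed by a digit, or with a name that starts with Hnrnp. This gave 31 of the 55364 genes in the table, 11 SR genes and 20 hnRNP genes. The rule used names and gene type only, but it was chosen with earlier results of these data known. The cells were single microglia, the resident macrophages of the retina, sorted from Iba1-EGFP mice, a strain in which cells with an active Iba1 (Aif1) gene carry a green fluorescent protein. Mice had been given PBS (0 mg/kg, 10 to 14 weeks old), ripasudil at 1 mg/kg (the Low group, 14 weeks old) or ripasudil at 10 mg/kg (the High group, 12 weeks old). Ripasudil is a small-molecule drug. Each group had 48 cells, 16 on each of 3 plates. The series title refers to optic nerve injury, but the labels do not say whether an eye was injured.

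The labels name no animal, so the cells of a group make up 1 sample per group. No test of a group difference was possible, no p-value is given, and cell-to-cell SDs describe cells and not animals. Age differed between the groups, and each group filled its own block of wells on every plate, so dose, age and well block cannot be told apart.

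SR proteins carry RNA-recognition motifs and a domain rich in arginine and serine. They bind mainly to exons and help U1 snRNP and U2AF to recognise the splice sites beside them, and they are kept active and nuclear by the SRPK and CLK kinases. HnRNPs coat nascent transcripts as they leave RNA polymerase II, and many of them oppose SR proteins by hiding splice sites or looping out exons. Members of both families also act in export, stability and translation of mRNA, and many limit their own output by splicing in exons that send their transcripts to decay.

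Values were FPKM, which divides a gene's reads by its length and by all assigned reads of that cell. An FPKM of at least 1 counted as detection of a gene, and cells with at least 1000 detected genes were kept, which left 46 PBS, 47 Low and 47 High cells. These 140 cells had between 30204 and 4668730 assigned reads, with a median of 1614850. Csf1r, a marker of microglia, was detected in 100% of kept cells, Tmem119 in 88.6% and P2ry12 in 77.9%, while in 1 cell of each group the summed FPKM of neutrophil markers exceeded that of microglia markers. Rod photoreceptor transcripts were also present: at least 3 of 10 rod markers were detected in 8 PBS, 8 Low and 11 High cells, all 10 were above 0 somewhere in every group, and their summed FPKM averaged 14.0, 258 and 1002, with a range from 0 to 291, 4951 and 18906. No molecular identifiers were named in the labels, so reads are not independent molecules, and the intervals given here (Clopper-Pearson, 95%) cover counting error only.

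The mean levels of the 31 genes ran over a wide range, without a clear break between high and low ones. Averaged over the 140 cells, Hnrnpa2b1 was highest at 154 ± 268 FPKM (SD over cells), followed by Hnrnpk at 141 ± 221, Hnrnpf at 129 ± 244, Srsf7 at 115 ± 219, Hnrnpa1 at 96.3 ± 267 and Srsf9 at 88.9 ± 243. These 6 genes held 52.9% of the summed FPKM of all 31. Neighbours in this order differed by far less than their spread over cells, so the order itself is loose. The next 5 genes were Hnrnpab at 87.0 FPKM, Hnrnpa3 at 69.0, Hnrnpc at 65.6, Srsf3 at 60.7 and Srsf5 at 58.3. Hnrnpul2 at 0.516 FPKM and Srsf12 at 0.00547 FPKM stood last. By mean FPKM, Hnrnpa2b1 stood at percentile 87.8 of all measured genes.

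A gene was counted as measured if it was detected in at least 25% of the 140 kept cells, all groups pooled. This held for 3716 genes, and for 19 of the 31 members, 7 of the SR genes and 12 of the hnRNP genes. The 12 members below this limit were Srsf1, Srsf4, Srsf10, Srsf12, Hnrnpa0, Hnrnpd, Hnrnpdl, Hnrnph3, Hnrnpll, Hnrnpr, Hnrnpul1 and Hnrnpul2. Hnrnph2, detected in 25.7% of cells, stood just inside the limit and Hnrnpdl, detected in 24.3%, just outside. Srsf12 was detected in 0 of 140 cells, which allows a share of up to about 2.14%. This limit is 3 divided by the number of cells and not a Clopper-Pearson limit. Srsf1, the founding SR protein, was detected in 18.6% of cells, far below its closest relative Srsf9 at 65.7%. The annotated length that divides the reads ran from 1653 bases for Srsf9 to 22199 for Hnrnpr, so 1 read is worth less FPKM in Hnrnpr than in any other member. Srsf1, at 5710 bases, likewise needs more reads than Srsf9 to count as detected in a cell. The part of length in the gap between these 2 genes was not tested.

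**Figure D1:**
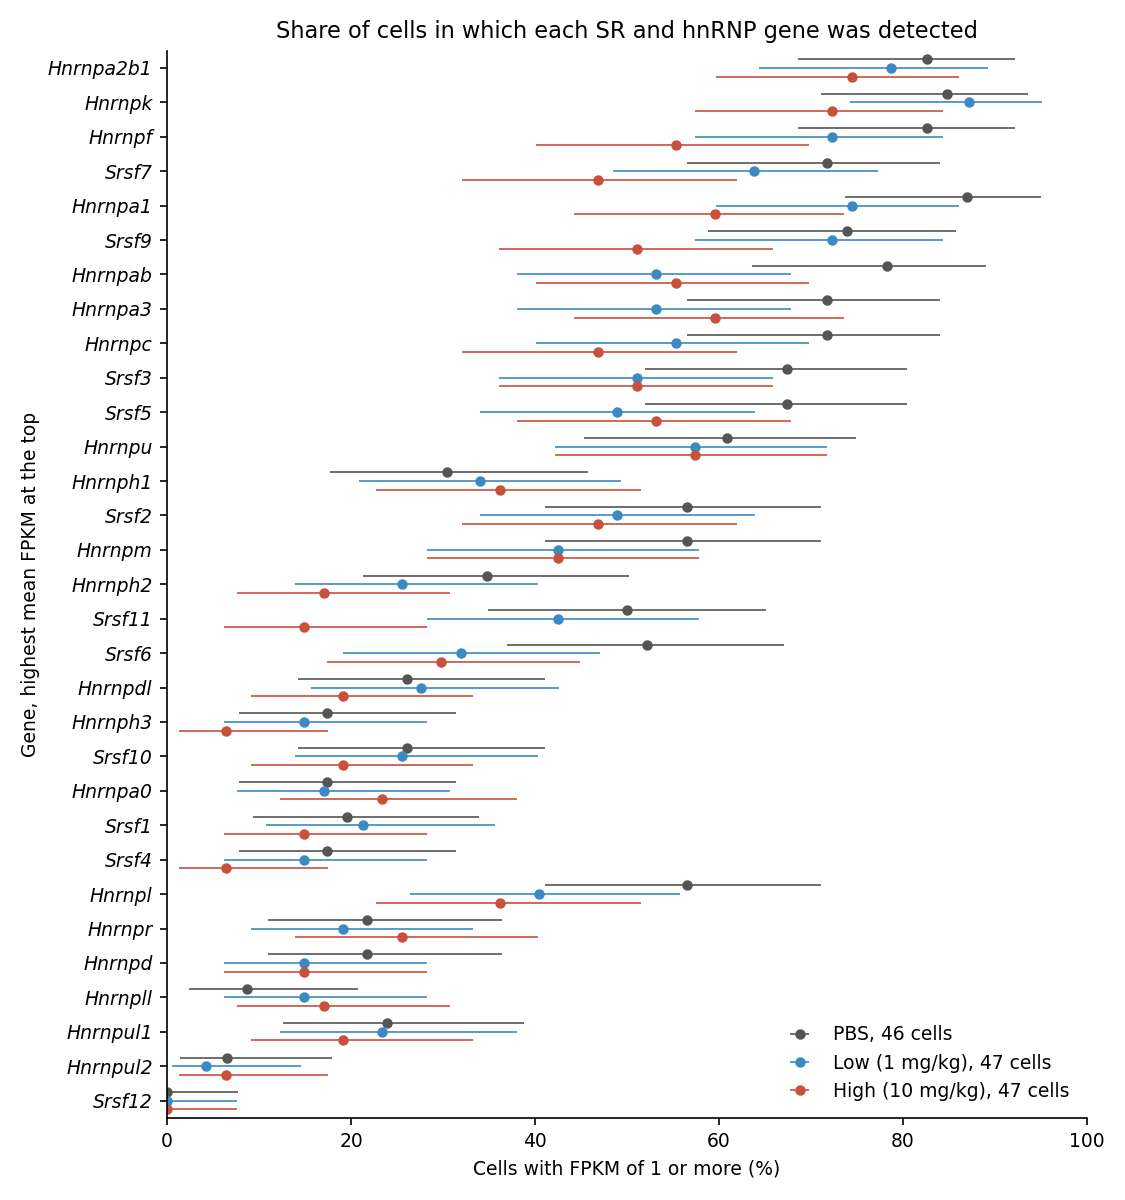
Percentage of kept cells (x axis) in which each of the 31 genes (y axis, highest mean FPKM at the top) had an FPKM of 1 or more, for 46 PBS, 47 Low and 47 High cells; bars are 95% Clopper-Pearson intervals, counting error only. Hnrnpa1 (87.0%) and Hnrnpk (84.8%) have the highest shares in PBS cells, and Srsf11 has the widest gap between its High share (7 of 47 cells) and its PBS share (23 of 46 cells).

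The number of splicing factor genes seen in a cell followed how many genes of any kind were seen. A PBS cell had a median of 14.5 of the 31 genes detected, a Low cell 10 and a High cell 9. By plate (1, 2 and 3) these were 14.5, 17 and 11.5 for PBS cells, 9, 15.5 and 9.5 in Low cells, and 8, 11 and 10 in High cells. The PBS median was highest on each plate, and Low and High exchanged places on plate 3. Detected genes of all kinds had medians of 3143 in PBS, 2418 in Low and 2264 in High cells, and over the 140 cells the number of members detected had a Spearman correlation of 0.90 with the number of all detected genes, both being counts from the same library. Among cells with 1000 to 2000 detected genes the median number of members was 5.5 in PBS, 7 in Low and 7 in High cells. Among cells with 2000 to 3000 it was 11, 9 and 10, and among cells with more it was 20, 21 and 19.5. Within like gene counts the groups lay close together and PBS was not always the highest. For every cell with enough reads, the number of genes with any read after thinning to 300000 reads was computed as an expected value. No reads were drawn. The pooled medians were 16.9 members in PBS (41 cells), 13.4 in Low (46 cells) and 12.9 in High cells (44 cells). Beside them stood 3379, 2541 and 2392 genes of all kinds. By plate the thinned medians were 15.9, 19.3 and 14.3 in PBS, 12.1, 16.6 and 12.9 in Low, and 12.9, 14.2 and 12.6 in High cells. PBS was again highest on each plate, and High stood above Low on plate 1.

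**Figure D2:**
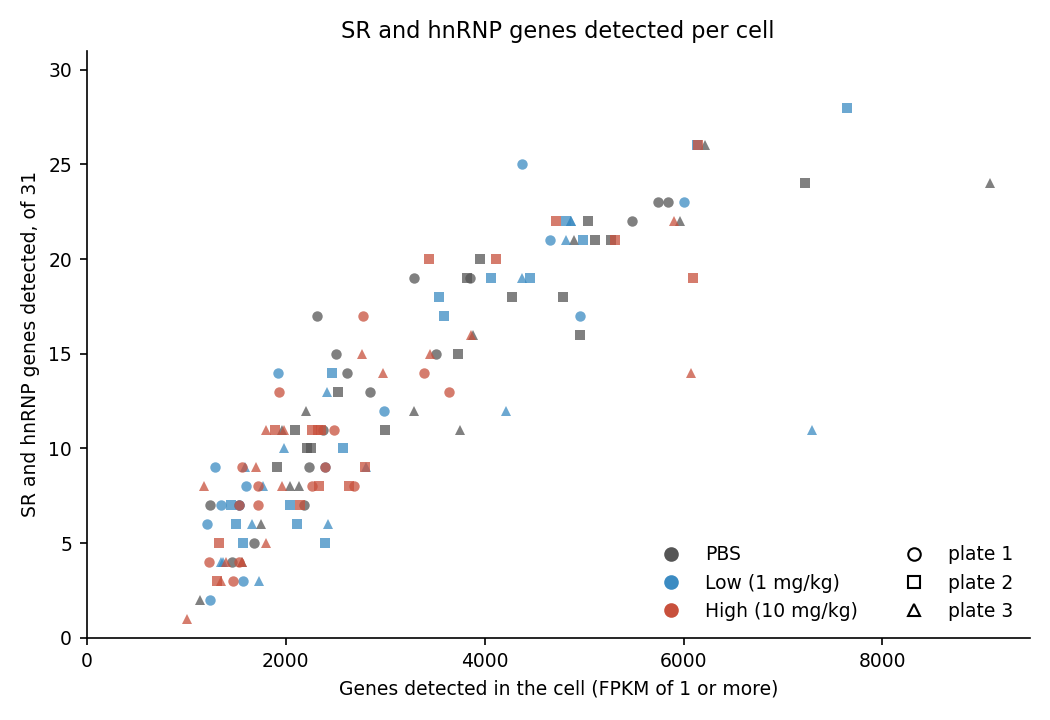
Number of the 31 genes detected in each kept cell (y axis) against all genes detected in that cell (x axis), both at an FPKM of 1 or more; colour gives the group and the shape gives the plate. Cells of the 3 groups lie on one rising band, and PBS cells, with a median of 14.5 members, lie further along it than Low cells with 10 and High cells with 9.

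The share of a cell's reads that went to these genes had a pooled median of 0.636% of assigned reads in PBS, 0.649% in Low and 0.611% in High cells. By plate (1, 2 and 3) it was 0.711%, 0.610% and 0.635% in PBS, 0.762%, 0.701% and 0.519% in Low, and 0.412%, 0.621% and 0.599% in High cells. The order of the groups therefore changed between plates, with High lowest on plate 1 and Low lowest on plate 3. Summed hnRNP FPKM had a median of 887 in PBS, 859 in Low and 863 in High cells when the plates were pooled. The plate medians of the hnRNP sum were 915, 821 and 913 in PBS, 1165, 920 and 790 in Low, and 598, 867 and 867 in High cells, so the pooled values lay closer together than those of plate 1. Summed SR FPKM had a median of 371 in PBS, 489 in Low and 285 in High cells, and here too the ranges over cells overlapped, from 1.18 to 1707 in PBS, 0.964 to 1860 in Low and 0.185 to 2098 in High cells. The plate medians of the SR sum were 366, 314 and 484 in PBS, 512, 454 and 312 in Low, and 284, 325 and 335 in High cells. Low was highest on plates 1 and 2 and lowest on plate 3. The single leading gene of a cell held a median of 25.6% of the member sum in PBS, 25.2% in Low and 34.6% in High cells. No SR gene was detected in 3 PBS, 5 Low and 4 High cells, whereas no hnRNP gene was detected in 0, 1 and 0 cells.

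For the comparisons below, the difference between groups is that of the mean log2(FPKM + 1) over cells, and a difference of 1 or more in size is called; the pseudocount of 1 makes differences of low genes smaller than their ratios. Over the 19 measured members, the High cells had a median difference of -0.94 from PBS cells, against -0.41 over all 3716 measured genes. It was -0.97, -0.66 and -0.74 on plates 1, 2 and 3. In High cells 16 of 19 members were lower than in PBS cells, where 79.3% of all measured genes were, so the direction by itself was that of most genes. Members lower by 1 or more numbered 8 of 19, where 16.9% of all measured genes were. Here and in the comparisons below, all measured genes were not matched to the members for mean FPKM. The part of level in these gaps was not tested. No member was higher by 1 or more, where 0.0538% of all measured genes were. Of all 31 members without the filter, the median difference was -0.62. All 7 measured SR genes were lower, at a median difference of -1.02, as were 9 of the 12 measured hnRNP genes, at a median of -0.79.

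The same comparison looked different when cells with like gene counts were set side by side. With the number of detected genes as a covariate the median over members was -0.30, against -0.04 over all measured genes, and 2 members were lower by 1 or more, where 3.31% of all measured genes were. In a common range of 1733 to 4140.5 detected genes, which held 26 High and 27 PBS cells, it was -0.25, against 0.10 over all genes. The log2 ratio of mean FPKM, which is set by the cells with the most transcript, had a median of -0.04 over the members, against 0.01 over all genes. Without cells with 3 or more rod markers the difference was -1.20, and 12 members were lower by 1 or more, where 21.2% of all measured genes were. With all kept cells 16.9% of all measured genes were, so genes of all kinds moved down too.

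Low cells stood closer to PBS cells. The median difference over the measured members was -0.39, against -0.15 over all measured genes, and -0.06, -0.23 and -0.40 on plates 1, 2 and 3; without plate 3 it was -0.19. In Low cells 13 of 19 members were lower than in PBS cells, where 62.6% of all measured genes were. Hnrnpab was the only member lower by 1 or more, where 6.4% of all measured genes were, and Srsf9 the only one higher by 1 or more, where 0.646% were. Lower on all 3 plates were 6 of 19 members, where 22.2% of all measured genes were, and Hnrnpab was so with a call, where 5.52% were. Both doses were set against the same PBS cells, so these comparisons are not independent of each other.

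Between the doses, the High cells had a median difference of -0.50 from Low cells over the measured members, against -0.26 over all measured genes, and -0.83, -0.64 and -0.08 on plates 1, 2 and 3; without plate 1 it was -0.14. Here 16 of 19 members were lower in High cells, where 72.1% of all measured genes were. Srsf9, Srsf11, Hnrnpa1 and Hnrnpf were lower by 1 or more, 4 of 19 where 7.97% of all measured genes were, and each was also lower on all 3 plates, where 6.51% were. In all 8 of 19 members were lower on all 3 plates, where 27.3% of all measured genes were. No member was higher by 1 or more in High cells, where 0.619% of all measured genes were. Without the 3 cells with more neutrophil than microglia marker FPKM, the members' medians were -0.97 for High minus PBS, -0.49 for Low minus PBS and -0.48 for High minus Low.

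**Figure D3:**
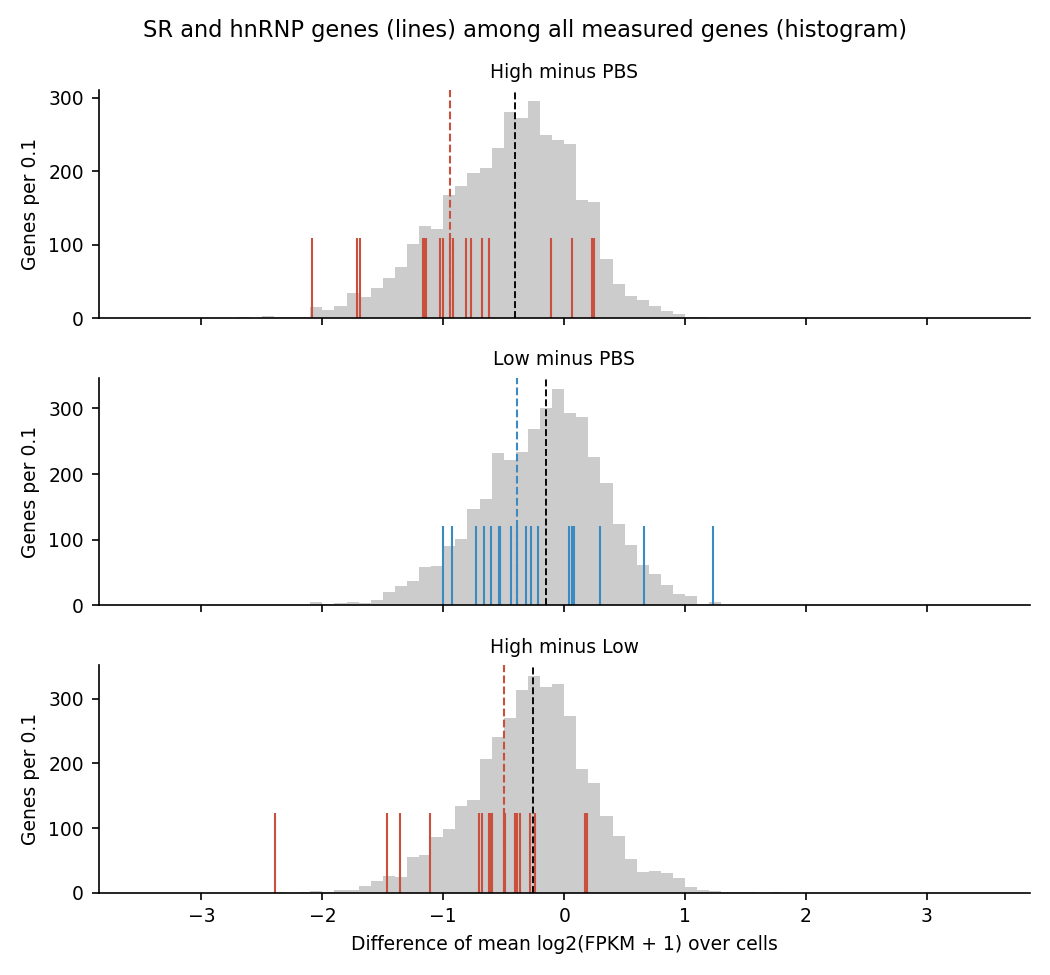
Difference of mean log2(FPKM + 1) (x axis) for all 3716 measured genes (grey histogram, genes per bin of 0.1) and for the 19 measured members (coloured lines), with the median of all genes (black dashes) and of the members (coloured dashes). The members' median lies left of that of all genes in each comparison, at -0.94 for High minus PBS, -0.39 for Low minus PBS and -0.50 for High minus Low.

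Srsf9 was the member that was higher by 1 or more in Low than in PBS cells, and it was lower in High cells than in both other groups. It encodes a small SR protein closely related to Srsf1, with a short arginine-serine domain. Srsf9 had a median of 5.83 FPKM in PBS cells (0 to 657), 47.1 in Low cells (0 to 1282) and 1.11 in High cells (0 to 2095). It was at 100 FPKM or more in 6 of 46 PBS, 17 of 47 Low and 6 of 47 High cells. About as many Low as PBS cells had it at all, 72.3% (57.4% to 84.4%) of Low and 73.9% (58.9% to 85.7%) of PBS cells, and in the cells that had it the median was 100 FPKM in Low and 16.8 FPKM in PBS cells. In High cells it was detected in 51.1% (36.1% to 65.9%), with a median of 11.9 FPKM in those. The groups overlapped over nearly their whole range.

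Srsf9 was higher by 1.23 in Low than in PBS cells, at percentile 99.8 of all measured genes, with 0.72, 2.48 and 0.42 on plates 1, 2 and 3. Plate 2 carried much of this, and without it the difference was 0.58. The plate medians were 37.7, 60.9 and 33.1 FPKM in Low cells against 4.99, 5.34 and 13.7 FPKM in PBS cells, so the Low median was the higher one on every plate. Cells at 100 FPKM or more numbered 6 of 15 Low and 4 of 16 PBS cells on plate 1, 5 of 16 and 0 of 16 on plate 2, and 6 of 16 and 2 of 14 on plate 3. Srsf9 was lower by 2.39 in High than in Low cells, the lowest of all 3716 measured genes in that comparison, with -1.69, -3.14 and -2.30 on the plates. It was also called lower in High than in PBS cells, with mean log2(FPKM + 1) of 2.22 ± 2.72 in High and 3.38 ± 2.73 in PBS cells (SD over 47 and 46 cells) and differences of -0.97, -0.66 and -1.88 on the plates; without plate 3 the difference was -0.82. That last comparison turned with the measure: mean FPKM was 64.9 in High and 54.6 in PBS cells, because 1 High cell had 2095 FPKM, and without the highest cell of each group it was 20.8 in High and 41.2 in PBS cells. Srsf9 led all members in 3 PBS, 8 Low and 2 High cells.

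Srsf9 lies on chromosome 5 (GRCm38.p6, plus strand, 115327177 to 115333080) with no exon shared with another gene, and no processed copy of its transcript was found in the genome annotation. Of its values above 0, 99.1% were whole numbers of reads to within 0.01 reads. Its promoter window, 250 bases before to 50 after the start at chr5:115326927-115327226, is shown because Srsf9 differed most between the doses; capitals mark 3 Sp1 boxes.
Srsf9: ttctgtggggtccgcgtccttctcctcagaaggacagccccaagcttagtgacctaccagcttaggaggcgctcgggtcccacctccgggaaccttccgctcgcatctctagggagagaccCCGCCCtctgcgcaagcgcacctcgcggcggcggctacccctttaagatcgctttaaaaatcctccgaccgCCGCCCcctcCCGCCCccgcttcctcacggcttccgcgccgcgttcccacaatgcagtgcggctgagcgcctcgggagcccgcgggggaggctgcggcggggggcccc

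Srsf11, an SR-related protein that binds near the 3' splice site, was found in few High cells. Detection was in 23 of 46 PBS cells (interval 34.9% to 65.1%), 20 of 47 Low cells (28.3% to 57.8%) and 7 of 47 High cells (6.20% to 28.3%). Cells at 10 FPKM or more numbered 14 in PBS, 16 in Low and 4 in High. On plate 1 it was detected in 0 of 15 High cells and 9 of 16 PBS cells, on plate 2 in 5 of 16 and 9 of 16, and on plate 3 in 2 of 16 and 5 of 14. Srsf11 was lower by 1.69 in High than in PBS cells, with -2.89, -1.30 and -0.78 on the plates, and lower by 1.47 in High than in Low cells, with -1.35, -1.23 and -1.82. Low and PBS cells differed by -0.22, with opposite signs on plates 1 and 3 (-1.54 and 1.04). Mean FPKM was 4.63 in High and 53.3 in PBS cells, and without the highest cell of each group 1.20 in High and 17.7 in PBS cells.

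The first of 2 promoter windows of Srsf11, on the minus strand at chr3:158036557-158036856 of GRCm38.p6, is shown as that of the SR gene with the largest difference between High and PBS cells; capitals mark 1 ETS core and 1 Sp1 box.
Srsf11: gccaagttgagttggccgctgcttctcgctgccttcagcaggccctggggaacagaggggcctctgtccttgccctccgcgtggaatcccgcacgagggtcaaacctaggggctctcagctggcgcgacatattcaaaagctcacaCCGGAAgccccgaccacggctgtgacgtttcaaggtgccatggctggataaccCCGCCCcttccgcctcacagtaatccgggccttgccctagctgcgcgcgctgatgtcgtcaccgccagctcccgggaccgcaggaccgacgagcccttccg

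Srsf7 and Srsf3 are a closely related pair of small SR proteins that link splicing and 3' end choice to mRNA export. Srsf7, the most abundant SR gene, was at a median of 22.7 FPKM in PBS (0 to 795), 3.81 in Low (0 to 1177) and 0.904 in High cells (0 to 1577). Its detection was in 71.7%, 63.8% and 46.8% of these cells. It was lower by 1.14 in High than in PBS cells, with -0.67, -0.82 and -1.84 on the plates; without plate 3 the difference was -0.75. Against Low cells the High cells differed by -0.70. The median over detecting cells was 142 FPKM in High and 97.4 FPKM in PBS cells, with 189, 115 and 176 FPKM on the plates in High and 70.6, 83.6 and 191 FPKM in PBS cells, so High was the lower one on plate 3. The mean over all cells was 112 FPKM in High and 115 FPKM in PBS cells, with 216, 83.9 and 41.9 FPKM on the plates in High and 114, 119 and 111 FPKM in PBS cells. High was above PBS on plate 1 only, and without the highest cell of each group the mean was 79.9 FPKM in High and 99.9 FPKM in PBS cells. In the common range of detected genes the sign turned, to 0.30. Srsf3 differed by -0.94 between High and PBS cells, of which plate 3 carried nearly all (-2.92, against 0.05 and -0.07 on plates 1 and 2).

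Srsf7 lies on the minus strand of chromosome 17, and its window at chr17:80207256-80207555 of GRCm38.p6 is shown beside the others as that of the most abundant SR gene; capitals mark 1 ETS core and 3 Sp1 boxes.
Srsf7: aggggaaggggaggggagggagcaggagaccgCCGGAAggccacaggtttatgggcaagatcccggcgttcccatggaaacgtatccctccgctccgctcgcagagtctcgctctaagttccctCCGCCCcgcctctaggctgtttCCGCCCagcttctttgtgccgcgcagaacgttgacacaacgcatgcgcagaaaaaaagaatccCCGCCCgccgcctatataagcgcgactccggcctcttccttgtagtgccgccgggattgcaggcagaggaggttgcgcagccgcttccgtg

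Srsf5, Srsf6 and Srsf4 form a group of SR proteins with a pair of RNA-recognition motifs and a long arginine-serine tail. Srsf5 had a median of 12.7 FPKM in PBS (0 to 402), 0.989 in Low (0 to 505) and 1.39 in High cells (0 to 389). It was lower by 1.02 in High than in PBS cells, with -1.50, -1.19 and -0.37 on the plates. The difference was -0.83 without plate 1, -0.92 without plate 2, and 0.10 in the common range of detected genes. Srsf6 differed by -0.92 between High and PBS cells, with -1.32, -0.75 and -0.74 on the plates, and was detected in 29.8% of High, against 52.2% of PBS cells. Srsf4 was rare, in 8 PBS, 7 Low and 3 High cells. At least 1 of these 3 genes was detected in 73.9% of PBS, 53.2% of Low and 61.7% of High cells.

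Srsf2, an exonic enhancer binder that stays in the nucleus, differed by -0.11 between High and PBS cells and by 0.30 between Low and PBS cells. Detection was in 56.5% of PBS, 48.9% of Low and 46.8% of High cells. Both Mettl23 and Mfsd11 overlap its exons on the other strand, and 31.4% of its values were whole reads. Srsf1 was detected in 9 PBS, 10 Low and 7 High cells and Srsf10, a splicing repressor when dephosphorylated, in 12, 12 and 9.

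Of the hnRNPs, Hnrnpa1 was the member lowest in High against PBS cells. Its protein binds UAGGG-like sites, represses exons and shuttles between nucleus and cytoplasm. It had a median of 74.3 FPKM in PBS (0 to 2206), 8.80 in Low (0 to 1506) and 1.58 in High cells (0 to 247). It was detected in 87.0% (73.7% to 95.1%) of PBS, 74.5% (59.7% to 86.1%) of Low and 59.6% (44.3% to 73.6%) of High cells, and reached 100 FPKM in 16, 13 and 6 cells. The plate medians were 0.777, 16.9 and 4.52 FPKM in High cells against 21.8, 84.3 and 95.1 FPKM in PBS cells, so the High median was the lower one on every plate although single cells overlapped. It was lower by 2.09 in High than in PBS cells, at percentile 0.215 of all measured genes, with -2.85, -1.01 and -2.56 on the plates. Mean FPKM was 29.1 in High and 127 in PBS cells, and without the highest cell of each group 24.3 in High and 80.7 in PBS cells. Against Low cells the High cells were lower by 1.36, with -2.30, -0.97 and -0.87 on the plates, and by 0.92 without plate 1. Low and PBS cells differed by -0.73, with -0.55, -0.04 and -1.69.

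Hnrnpa1 has 16 processed copies in the genome, intronless pseudogenes with at least 90% identity over 300 bases, and 19.4% of its values were whole reads, so the authors' counting may have divided reads between the gene and its copies. With the reads of the copies added to those of the gene, a choice made after seeing the data, the difference between High and PBS cells was -2.10. The most often detected copy, Gm10052, averaged 5.63 FPKM in High and 28.7 FPKM in PBS cells. The Hnrnpa1 window, on the plus strand at chr15:103240147-103240446 of GRCm38.p6, is shown because of the members this gene had the largest difference between High and PBS cells; capitals mark 4 CCAAT boxes and 2 Sp1 boxes.
Hnrnpa1: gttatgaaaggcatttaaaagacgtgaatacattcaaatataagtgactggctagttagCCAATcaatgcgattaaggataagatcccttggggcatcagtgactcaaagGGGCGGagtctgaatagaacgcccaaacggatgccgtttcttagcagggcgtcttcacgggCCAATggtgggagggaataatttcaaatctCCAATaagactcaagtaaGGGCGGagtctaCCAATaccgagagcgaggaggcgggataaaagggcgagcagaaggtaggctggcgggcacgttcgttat

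The other A proteins did not share the size of this difference. Hnrnpa2b1, the most abundant member and a reader of methylated RNA and of sorting motifs in small RNAs, had a median of 104 FPKM in PBS (up to 643), 111 in Low (up to 934) and 84.4 in High cells (up to 2539). Its difference between High and PBS cells was -0.62, with -0.68, -1.73 and 0.64 on the plates, and between Low and PBS cells 0.06. Hnrnpa3 differed by -0.999 between High and PBS cells, just short of a call, with -0.45, -0.38 and -2.26 on the plates; it has 37 processed copies, and with their reads added the difference was -1.01. Hnrnpa0, a single-exon gene that binds AU-rich elements, was detected in 8 PBS, 8 Low and 11 High cells.

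Hnrnpf, which binds runs of G together with the H proteins, was next in that comparison. It had a median of 86.0 FPKM in PBS (0 to 2243), 61.9 in Low (0 to 976) and 1.88 in High cells (0 to 702). Detection was in 82.6% of PBS, 72.3% of Low and 55.3% of High cells, and reached 100 FPKM in 22, 20 and 12 cells. It was lower by 1.72 in High than in PBS cells, with -1.44, -1.97 and -1.80 on the plates, and lower by 1.11 in High than in Low cells, with -1.39, -1.37 and -0.59; against Low cells the value was -0.98 without plate 1 or without plate 2. In the common range of detected genes the difference between High and Low cells turned to 0.45. Over 17 alternative settings the difference between High and PBS cells ran from -2.16 to -0.44, at its smallest short of a call. Only 5.88% of its values were whole reads, and of its 7 processed copies Gm12435 was itself detected in 46.8% of High and 78.3% of PBS cells; with the reads of all copies added, the difference between High and PBS cells was -1.85.

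Hnrnph2, an X-linked relative of Hnrnph1, was lower by 1.15 in High than in PBS cells, with -2.27, -0.88 and -0.19 on the plates, and by 0.59 without plate 1. It was detected in 16 of 46 PBS, 12 of 47 Low and 8 of 47 High cells, with highest values of 1034, 702 and 473 FPKM, so few cells carry this difference. Hnrnph1 went the other way, at 0.23 between High and PBS cells, with 0.49, -0.51 and 0.69 on the plates. Hnrnph3, the shorter member that lacks one of the RNA-binding domains, was detected in 8 PBS, 7 Low and 3 High cells, and its High mean of 47.4 FPKM rested on 1 cell at 2220, being 0.131 without it.

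**Figure D4:**
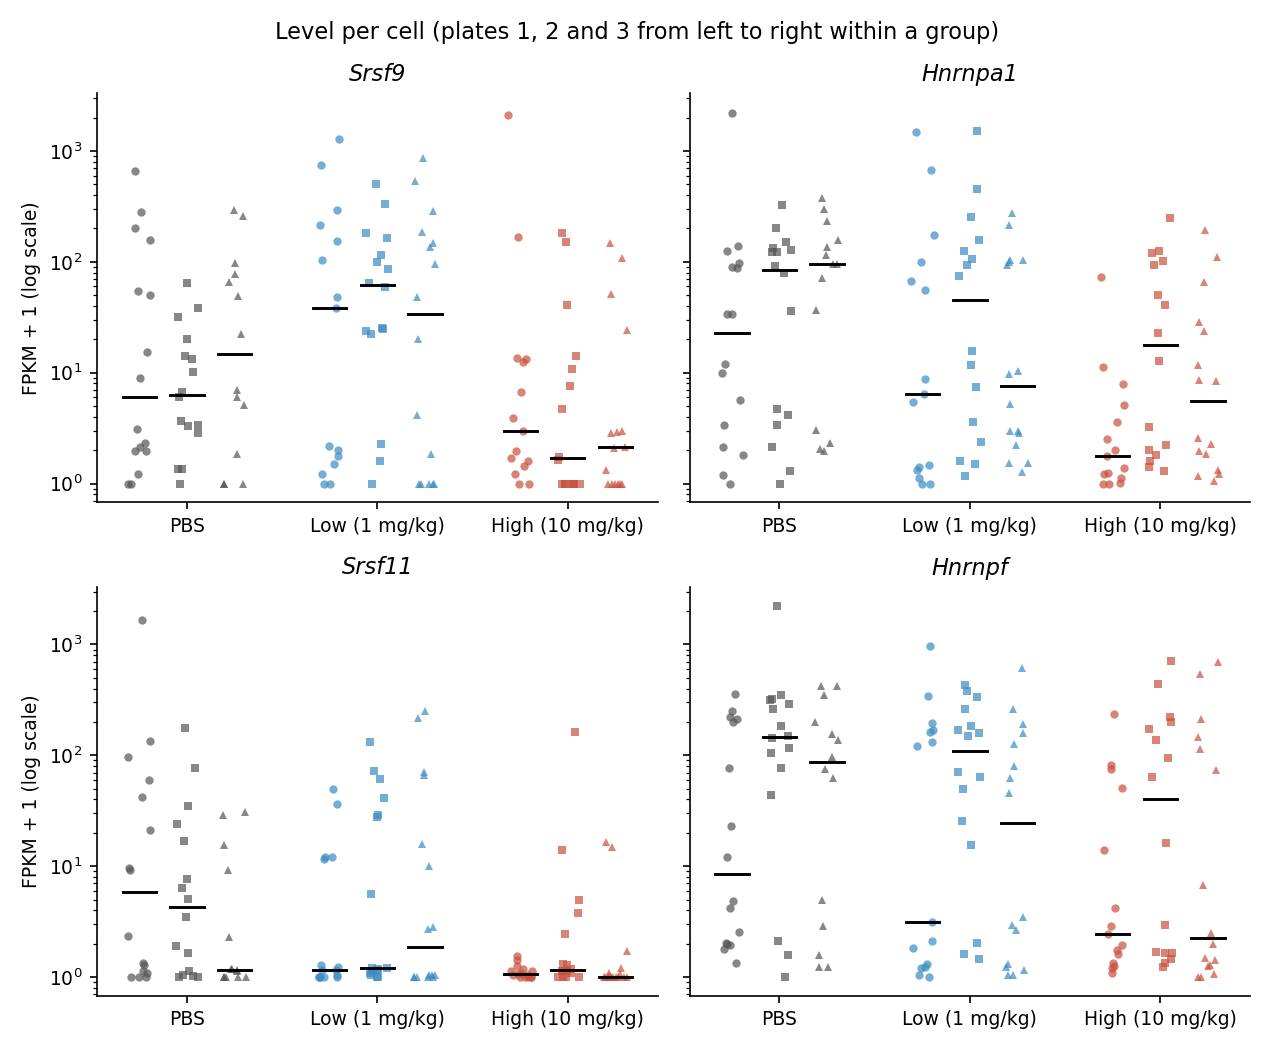
FPKM + 1 on a log axis (y) in each kept cell for Srsf9, Hnrnpa1, Srsf11 and Hnrnpf, by group and, within a group, by plate 1, 2 and 3 from left to right; black lines are plate medians. For Srsf9 the plate medians of Low cells (33.1 to 60.9 FPKM) lie above those of PBS cells (4.99 to 13.7 FPKM), and for Hnrnpa1 those of High cells (0.777 to 16.9 FPKM) lie below those of PBS cells (21.8 to 95.1 FPKM).

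Hnrnpk and Hnrnpc behaved differently from each other. Hnrnpk, a KH-domain protein that binds runs of C, was detected in 84.8% of PBS, 87.2% of Low and 72.3% of High cells, with medians of 45.8, 98.8 and 48.8 FPKM. It differed by 0.06 between High and PBS cells and by 0.66 between Low and PBS cells, with -0.50, 0.89 and 1.58 on the plates for the Low comparison. Hnrnpc, which packages nascent transcripts through runs of U, was lower by 1.17 in High than in PBS cells, but the plates did not share a sign (-2.42, 0.30 and -1.51). Its mean FPKM was 78.3 in High and 68.1 in PBS cells, with 22 of 47 High and 33 of 46 PBS cells detecting it and medians of 83.0 FPKM in High and 59.6 FPKM in PBS cells among those.

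Among the D proteins, Hnrnpab was the only member called lower at the low dose. It had a median of 44.8 FPKM in PBS (up to 588), 1.14 in Low (up to 956) and 2.28 in High cells (up to 1345). It was detected in 78.3% (63.6% to 89.1%) of PBS, 53.2% (38.1% to 67.9%) of Low and 55.3% (40.1% to 69.8%) of High cells. Mean log2(FPKM + 1) was 3.37 ± 3.36 in Low and 4.37 ± 2.86 in PBS cells (SD over 47 and 46 cells), a difference at the edge of the call, with -0.45, -0.51 and -2.16 on the plates, and -0.47 without plate 3. Mean FPKM ran the other way, at 86.0 in Low and 70.2 in PBS cells. Exons of Phykpl overlap this gene on the other strand. Hnrnpd (AUF1), which binds AU-rich elements, was detected in 10 PBS, 7 Low and 7 High cells, and its relative Hnrnpdl in 12, 13 and 9.

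Of the remaining hnRNPs, Hnrnpm, which binds GU-rich sequence, differed by -0.77 between High and PBS cells and Hnrnpl, a CA-repeat binder, by -0.68, both lower on all 3 plates. Hnrnpu, a scaffold attachment factor that binds chromatin and RNA, was the highest of the 19 in that comparison at 0.24, with -0.06, -0.64 and 1.47 on the plates, and it shares exon sequence with Cox20 on the other strand. Hnrnpll, known for its part in CD45 splicing in lymphocytes, was detected in 4 PBS, 7 Low and 8 High cells. Hnrnpr was detected in 10, 9 and 12, Hnrnpul1 in 11, 11 and 9 and Hnrnpul2 in 3, 2 and 3.

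**Figure D5:**
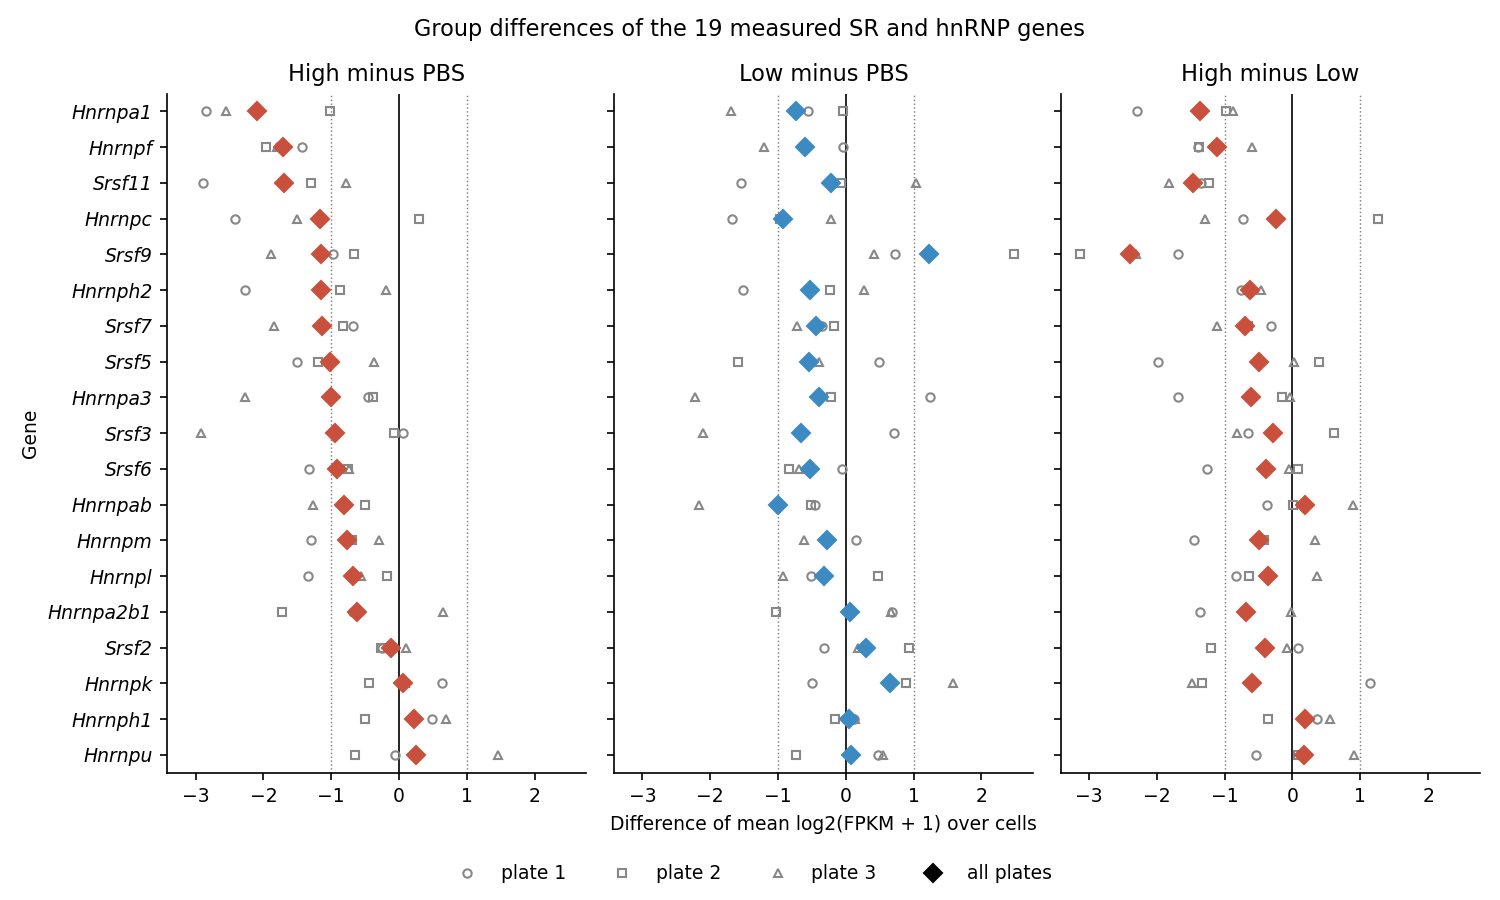
Difference of mean log2(FPKM + 1) over cells (x axis) for the 19 measured members (y axis, ordered by High minus PBS) in each comparison; diamonds use all cells, open symbols the cells of 1 plate, and dotted lines mark a difference of 1. Hnrnpa1 (-2.09), Hnrnpf (-1.72) and Srsf11 (-1.69) stand lowest for High minus PBS with all plates below 0, and Srsf9 stands at 1.23 for Low minus PBS and -2.39 for High minus Low.

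Lower in High than in PBS cells on all 3 plates were 12 of the 19 measured members, where 38.6% of all measured genes were, and 7 of them were also lower by 1 or more, where 15.1% were. These 7 were Hnrnpa1, Hnrnpf, Srsf11, Srsf9, Hnrnph2, Srsf7 and Srsf5. Of these, Hnrnpa1, Hnrnpf, Hnrnph2 and Srsf11 kept their sign in that comparison under all 17 alternative settings. The 7 were picked as lower on every plate, so settings without 1 plate had little room to turn a sign. No share of all measured genes that kept their sign is given here. The size was less steady: -2.64 to -1.30 for Hnrnpa1 and -2.16 to -0.44 for Hnrnpf. For Srsf11 it was -3.27 to -0.77 and for Hnrnph2 -1.74 to -0.33. The part of rod transcripts and of the number of detected genes in these differences was not tested beyond the values given.

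Other parts of the splicing machinery were followed through 8 lists with 107 genes, of which 51 were measured. Between High and PBS cells their median difference was -0.42, against -0.41 over all measured genes, and 48 of 51 were lower, where 79.3% of all measured genes were. Lower by 1 or more were 9 of the 51, a share close to the 16.9% of all measured genes, and none was higher by 1 or more. The Sm core, the ring that holds spliceosomal snRNAs, had a median of -0.71 with 7 of 7 lower. In it Snrpd1 was lower by 1.64 in Low and by 1.72 in High than in PBS cells, on all 3 plates each. Of the U1 and U2 snRNP and U2AF genes, 15 of 15 were lower in High than in PBS cells and 4 were lower by 1 or more, beside those same shares of all measured genes, and their median of -0.42 was next to the -0.41 of all genes. Sf3b1, the U2 subunit that holds the branch site, was lower by 1.91 in High than in PBS cells, with -2.16, -0.73 and -2.97 on the plates, and by 1.30 in Low than in PBS cells; Snrpa, a U1 protein, was lower by 1.24 in High than in PBS cells.

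Among partners of the SR proteins, Srrm1 was lower by 1.12 and Rnps1, a component that joins the exon junction complex, by 1.27 in High than in PBS cells, both on all 3 plates. Tra2b, a sequence-specific SR-like protein, differed by -0.83 in that comparison. Of the kinases and importers of SR proteins only 1 of 11 was measured, Clk1, at 0.02 for Low and -0.17 for High against PBS. Of hnRNP proteins under other names, 6 of 13 were measured with a median of -0.50 between High and PBS cells, and Ewsr1 was lower by 1.09. In the tri-snRNP and catalytic list, 3 of 17 were measured and Bud31 was lower by 1.21. Among the other splicing regulators, with a median of -0.18 over 8 genes, Rbm39 differed by -0.99 and Elavl1 by -0.87. Between Low and PBS cells, 3 of the 51 genes were lower by 1 or more, where 6.4% of all measured genes were, with a median of -0.31 over them all, against -0.15 over all measured genes; Pcbp1 differed by -0.81 and Ddx39 by -0.93.

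RefSeq promoter windows of GRCm38.p6, 300 bases each, were available for 29 of the 31 members, 41 windows in all; Hnrnpll and Hnrnpul2 had none. They were rich in G and C, with a median of 68.3% against 52.7% over all 32851 windows, and held a median of 31 CpG pairs against 7. On either strand, GGGCGG (the Sp1 box) was in 82.9% of member windows and 35.7% of all windows, CCGGAA (the ETS core) in 41.5% and 14.9%, and CCAAT in 51.2% and 37.4%. TATAAA was in 9.76% of member windows and 13.6% of all. TGACGTCA (the cAMP response element) was in 0 of 41 member windows and 1.79% of all. Matches of different motifs that overlapped were each counted. Windows of 1 gene can overlap, so a site can be counted more than once. By gene, the Sp1 box was in 24 of 29 members, the ETS core in 12 and CCAAT in 17. All windows were not matched to the member windows for G and C, so the part of base composition was not tested. The 4 windows printed above differ in what they hold: that of Hnrnpa1 has 48.3% G and C and is the one with CCAAT boxes, while that of Srsf9 has 69.0% and holds, of these motifs, Sp1 boxes alone.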

How the data were processed

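Single cells were lysed, their cDNA amplified in the same tube and tagmented with the Nextera XT kit, per the labels' protocols. The authors deposited FPKM values per gene and cell with a gene length in bases. The builds GRCm38.p6 and mm10 and the tools STAR 2.7.2b, featureCounts 1.6.1, Trimmomatic 0.36, Trim Galore 0.4.4 and cutadapt 1.16 are named in the submitters' processing notes. What each tool did, its settings and whether strand was used are not given in the sources used here. Since FPKM times length had 1 total for every cell, values are shares of assigned reads, and reads per cell were taken from the most frequent value of FPKM times length, read as 1 read; over all genes a median of 52.9% of a cell's values were whole reads to within 0.01 reads, so no count test was run.

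From the deposited FPKM, group means of log2(FPKM + 1), shares of cells and their Clopper-Pearson intervals were computed with Python 3.11.15, numpy 2.4.6, pandas 2.3.3 and scipy 1.17.1; figures used matplotlib 3.10.9. The group difference was tested on PBS cells drawn with replacement, with some genes made higher or lower by a set factor. The recovery of reads was tested on simulated counts. A gene counted as measured at FPKM 1 in at least 25% of all kept cells pooled over the groups. Described in full were members past a difference of 1 with 1 sign on all 3 plates in any comparison, and the 6 members with the highest mean FPKM; of each other list, the 2 genes with the largest difference for each dose. Members, lists and rules were chosen with earlier results of these data known. Replicate numbers only name cells. Gene models came from GENCODE M21, where all 31 members had the same coordinates; 14 shared exon sequence with another gene, and 14 had processed copies (78 in all), found with BLAST+ 2.17.0. Promoter sequences were RefSeq's.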

Additional observations from a re-analysis of the deposited data

How the results depend on the processing

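No paired analysis was possible because replicate numbers only name cells and no test was run. Over all alternatives, 96 values of the main summaries stayed within the limits set, 40 moved and 8 changed sign; for single members the numbers were 462, 43 and 5. For High minus PBS, the median difference was -1.32 with pseudocount 0.1, -0.45 with pseudocount 10, -0.042 as log2 ratio of mean FPKM, -1.13 with TPM, -0.62 without the filter on low genes, -0.50 in cells with at least 2000 genes, -0.30 adjusted for detected genes, -0.25 in the common range of detected genes and -1.20 without cells with rod markers. Members lower by 1 or more numbered 14 and 2 with those pseudocounts (34.5% and 1.99% of all measured genes), and 3, 3, 2 and 3 by ratio, in cells with at least 2000 genes, adjusted and in the common range (13.3%, 9.26%, 3.31% and 5.19% of all measured genes). Members per cell differed by -2.5 at FPKM 10, -2.0 in cells with at least 2000 genes, -0.69 adjusted and -1.0 in the common range, from -5.5. As a ratio Srsf9 was at 0.25, and in the common range Srsf5 was at 0.10 and Srsf7 at 0.30. For Low minus PBS, the median was -0.74 and -0.071 with the pseudocounts, 0.14 by ratio, -0.16 without the filter, 0.018 in cells with at least 2000 genes, -0.045 adjusted and 0.055 in the common range, and -0.45 to -0.19 without 1 plate. Hnrnpab was at 0.29 by ratio. Members lower by 1 or more numbered 3 with pseudocount 0.1, 0 with pseudocount 10, 0 with all cells and 0 adjusted. There were 2 with TPM, in cells with at least 2000 genes and without rod-marker cells. With at least 300000 reads or without the neutrophil-marker cells there were also 2, and without 1 plate 1 to 4. Of all measured genes 0.673% to 17.9% were in these settings. That range is not matched to single settings, so none of these counts is read as a result about the members. Members per cell differed by -2.0 at any FPKM above 0, -1.5 at FPKM 10, 1.5 in cells with at least 2000 genes, -0.56 adjusted and -2.0 in the common range. For High minus Low, the median was 0.18 and Hnrnpf 0.45 in the common range, 1 member was lower by 1 or more with pseudocount 10 (1.10% of all measured genes), and members per cell differed by 1.0 in the common range, 0.5 without the neutrophil-marker cells and -1.0 to 0.5 without 1 plate. Srsf9 kept its sign in 17 of 17 alternatives for Low minus PBS (0.58 to 1.66) and for High minus Low (-3.02 to -1.16). It was picked for calls with 1 sign on every plate in these comparisons, so settings without 1 plate had little room to turn it. No share of all measured genes that kept their sign is given for them. The limits on reads and neutrophil markers were chosen after seeing the data. The cause was not tested. With 1 sample per group, neither direction nor size can be set against the spread between mice, and cells detecting a gene and transcript per cell are both limited by depth.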

Other observations

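Cell by cell, summed SR FPKM and summed hnRNP FPKM had a Spearman correlation of 0.23 over the 140 kept cells, a description of values that share the same library and the same total. Hnrnpa2b1 was the leading member in 24 cells, Hnrnpf in 20, Srsf7 in 18, Hnrnpk in 15 and Srsf9 in 13, so these 5 genes led in most of the cells. Hnrnpf led in 11 PBS, 4 Low and 5 High cells. Hnrnpu led in 0 PBS, 0 Low and 3 High cells. By subgroup, at least 1 of the 4 A proteins was detected in 95.7% of PBS, 95.7% of Low and 95.7% of High cells, whereas at least 1 of the 3 D proteins was detected in 82.6%, 61.7% and 61.7%. For Srsf3 and Srsf7 together the shares were 84.8%, 72.3% and 63.8%. The processed copy Gm7964 of Hnrnpk averaged 34.7 FPKM in PBS, 49.5 FPKM in Low and 49.4 FPKM in High cells.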
